A study of Mus musculus with 12 samples.

Results

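A set of 10 genes of hepatic stellate cells, pericytes and the extracellular matrix were examined in whole mouse liver: Rgs5, Des, Lrat, Reln, Pdgfrb, Dcn, Col1a1, Col1a2, Col3a1 and Acta2. They were chosen by symbol, with earlier results of these data known, and all 10 were found among the 24475 genes of the deposited table. The study compared livers of fed wild-type mice (WT, 6 libraries, numbered 1 to 6) with livers of fed mice lacking Gcg, the gene of the precursor of glucagon and of the glucagon-like peptides (Gcg KO, 6 libraries, numbered 7 to 12). Strand-specific libraries of polyadenylated RNA were sequenced, and expression was given in RPKM, reads scaled to gene length and library depth. The labels name no strain, sex, age or Cre driver, and do not say whether each library came from a separate animal, so each p-value reflects the spread among these libraries alone, which may be technical.

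Stellate cells lie between the hepatocytes and the sinusoidal endothelium, store vitamin A as retinyl ester, and share with pericytes of other tissues the position around small vessels. After injury they can become myofibroblasts, which take up smooth muscle actin and secrete fibrillar collagen. In a healthy liver such cells are a small part of the tissue, and smooth muscle of the portal vessels and portal fibroblasts also express several of these genes. In bulk RNA, fewer cells of a type and less RNA per cell cannot be told apart.

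The depth, read from the lowest steps of the RPKM values, was estimated at 10300000 to 15000000 reads per library. Hepatocyte RNA dominated every library: Alb, the serum albumin gene, had 26714 ± 2915 in WT livers and 25992 ± 2656 RPKM in Gcg KO livers (SD, n = 6 each). Stellate cell identity was also represented, since 19 of 20 genes of a stellate list passed the filter of a mean of 0.5 RPKM over the 12 libraries; Gfap, the remaining one, did not. Gcg itself was listed at 0 in all 12 livers, so liver RNA does not check the genotype labels. WT 6, Gcg KO 10 and Gcg KO 12 stood apart from the other 9 libraries in earlier results of these data, and the values without them are given where they matter.

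Of the 10 genes only Rgs5 differed between the genotypes beyond the threshold. It was higher in every Gcg KO liver than in any WT liver. The fold change between its group means of log2(RPKM + 0.5) was 1.29. The 3 fibrillar collagen genes and Acta2 had higher group means in Gcg KO and overlapping libraries, and did not pass. Des, Pdgfrb, Reln, Dcn and Lrat did not pass either. With limma and Benjamini-Hochberg adjustment over all 11347 tested genes (threshold 0.05), 1 of 10 members was called, and it was higher in Gcg KO; the background was 3.87% of tested genes called, 1.95% called higher and 1.92% called lower. At an unadjusted p below 0.05 there were 3 members (Rgs5, Col1a2 and Col3a1), where 15.7% of tested genes reached that level. The log2 fold change was above 0 for 9 of 10 members and for 54.3% of tested genes, and its median was 0.19 over the members and 0.01 over all tested genes.

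**Figure D1:**
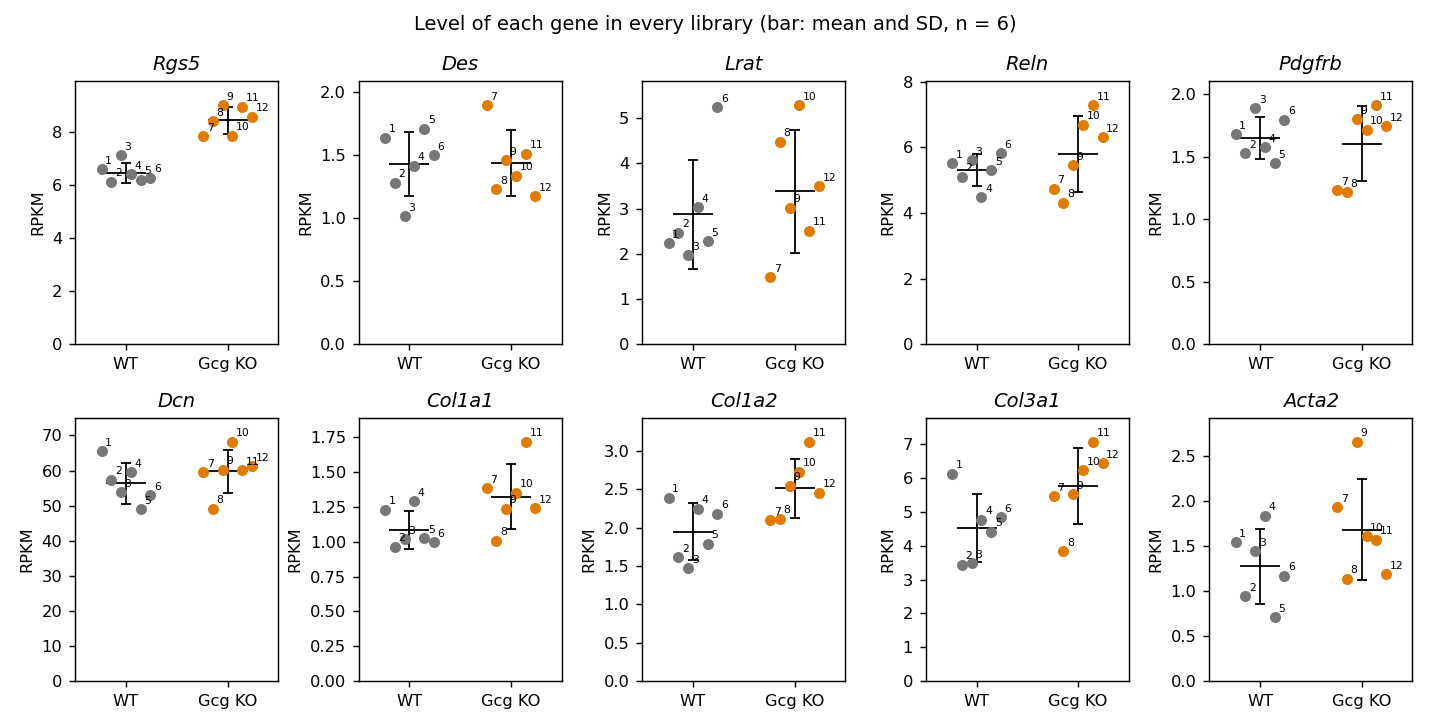
RPKM of each of the 10 genes in 6 WT livers (grey points) and 6 Gcg KO livers (orange points), numbered by library; black bars give each group's mean and SD. The groups are separate for Rgs5, with 7.81 RPKM as the lowest Gcg KO value and 7.10 RPKM as the highest WT value, and overlap for the other 9 genes.

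Upstream sequence was at hand for 7 of the 10 genes in RefSeq (GRCm38.p6). The 250 bases before the annotated start are shown for 4 of them: Rgs5, the gene that differed; Lrat, the gene with the highest coefficient of variation over the 12 libraries (40.3%); and Col1a2 and Col3a1, collagen genes whose levels are compared below. They read 5′ to 3′ along the gene, and capitals mark matches, on either strand, to any of 3 promoter elements. The TATA box, which places the start of transcription, was searched as TATAAA. The element bound by factor NF-Y was searched as CCAAT. The GC box, bound by Sp family factors, was searched as GGGCGG.
Rgs5: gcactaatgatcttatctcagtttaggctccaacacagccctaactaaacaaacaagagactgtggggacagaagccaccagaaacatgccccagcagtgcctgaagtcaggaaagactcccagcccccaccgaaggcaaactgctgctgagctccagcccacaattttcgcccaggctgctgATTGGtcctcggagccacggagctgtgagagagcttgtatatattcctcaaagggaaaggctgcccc
Lrat: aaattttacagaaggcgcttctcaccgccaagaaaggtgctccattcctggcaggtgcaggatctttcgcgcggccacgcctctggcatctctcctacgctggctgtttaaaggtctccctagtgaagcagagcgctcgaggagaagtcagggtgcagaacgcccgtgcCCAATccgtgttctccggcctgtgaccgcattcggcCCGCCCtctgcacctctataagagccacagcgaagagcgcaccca
Col1a2: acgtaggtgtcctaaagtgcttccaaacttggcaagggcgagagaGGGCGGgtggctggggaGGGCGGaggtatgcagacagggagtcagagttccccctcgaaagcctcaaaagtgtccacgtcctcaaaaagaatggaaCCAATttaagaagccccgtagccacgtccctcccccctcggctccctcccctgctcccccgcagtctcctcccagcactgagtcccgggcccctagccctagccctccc
Col3a1: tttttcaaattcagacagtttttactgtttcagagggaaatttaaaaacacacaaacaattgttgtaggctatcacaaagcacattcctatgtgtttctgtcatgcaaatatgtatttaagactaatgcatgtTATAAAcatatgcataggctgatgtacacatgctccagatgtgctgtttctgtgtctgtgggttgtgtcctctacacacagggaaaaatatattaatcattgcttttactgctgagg

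The Rgs5 window (chr1:169655251-169655500, plus strand) held 1 match, an NF-Y element on the opposite strand that begins 67 bases before the start. The Lrat window (chr3:82903975-82904224, minus strand) held an NF-Y element from base 81 before the start and an opposite-strand GC box from base 45. The Col1a2 window (chr6:4505368-4505617, plus strand) held GC boxes from bases 205 and 188 and an NF-Y element from base 109. That of Col3a1 (chr1:45311288-45311537, plus strand) held only the letters TATAAA, from base 117. The 2 collagen windows differed in composition, with 62% G and C for Col1a2 and 35.2% for Col3a1. Among 32851 windows of the same length, 33.8% held an NF-Y element, 32.7% a GC box and 12.4% the letters TATAAA. A match is a stretch of letters and not a measured site. A CArG box, a run of A or T between CC and GG, was also searched. It had no match in the windows shown and was held by 1.47% of the 32851 windows. The other elements were searched as exact letters only, so TATA-like stretches with other letters, as in the Rgs5 and Lrat windows, are not marked.

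Rgs5 (Entrez 19737, chromosome 1, 169655501 to 169695813, GRCm38) encodes a regulator of G protein signalling that speeds the inactivation of G alpha subunits and is a marker of pericytes and vascular smooth muscle. Its levels in WT 1 to 6 were 6.58, 6.11, 7.10, 6.39, 6.18 and 6.26 RPKM. In Gcg KO 7 to 12 they were 7.81, 8.39, 9.0, 7.84, 8.93 and 8.55 RPKM. All 6 Gcg KO livers lay above all 6 WT livers, and both groups were narrow. Groups of 6 were separate in 3.09% of tested genes, and separate with Gcg KO the higher in 1.6%. The means were 6.44 ± 0.365 in WT livers and 8.42 ± 0.514 RPKM in Gcg KO livers (SD, n = 6), a log2 fold change of 0.36 ± 0.06 (SE; 95% interval 0.23 to 0.49; limma adjusted p = 0.0036). Without WT 6, Gcg KO 10 and Gcg KO 12 the log2 fold change of Rgs5 was 0.37 (limma adjusted p = 0.0263). An exact two-sided permutation test of Rgs5 alone gave p = 0.00216, the smallest that 6 libraries against 6 allow. Groups without overlap always give this value, so the test adds nothing to the separation described above.

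Markers of endothelial cells and of bile duct cells were examined beside Rgs5. Of 15 endothelial markers, all measured, 2 rose, 0 fell and 13 did not pass (median log2 fold change 0.18), where 1.95% of all tested genes were called higher. The log2 fold change was above 0 for 13 of the 15 markers and for 54.3% of tested genes. An unadjusted limma p below 0.05 was reached by 4 of the 15 and by 15.7% of tested genes. The summed level of these 15 markers was 138.8 to 183.3 RPKM in WT and 145 to 219.9 RPKM in Gcg KO. Clec4g and Fcgr2b, receptors of sinusoidal endothelium and the 2 most abundant, had 26.5 ± 4.08 and 20.1 ± 2.93 RPKM in WT and 32.9 ± 4.88 and 21.6 ± 3.61 RPKM in Gcg KO (limma adjusted p = 0.177 and 0.773). Lyve1, a hyaluronan receptor of sinusoidal endothelium, rose from 3.01 ± 0.895 to 6.06 ± 1.81 RPKM without overlap. Flt4, the VEGF-C receptor, rose from 4.83 ± 0.404 to 6.31 ± 0.794 RPKM with overlapping libraries, a log2 fold change of 0.35 (limma adjusted p = 0.0336). Flt4 passed in 13 of 23 alternatives: the call was lost with no filter, without any of WT 1, 2, 3, 5 and 6 or Gcg KO 9, 10 and 12, and without the 3 libraries together (log2 fold change 0.27; limma adjusted p = 0.133). Spp1, osteopontin, the 1 called gene of 3 measured cholangiocyte markers, rose from 17.8 ± 4.75 to 89.0 ± 79.4 RPKM, and made up most of the summed level of that list, which was 14.51 to 27.8 RPKM over WT livers and 35.2 to 249.1 over Gcg KO livers. Sox9, a transcription factor of duct cells, had 1.23 ± 0.174 and 1.85 ± 0.551 RPKM (limma adjusted p = 0.130). Krt19, the keratin of bile duct epithelium, had a lower mean in Gcg KO, 1.01 ± 0.277 against 0.887 ± 0.425 RPKM (log2 fold change -0.17; limma adjusted p = 0.788), so the list had no common direction. Epcam, Krt7 and Cftr, further markers of bile duct cells, were under the filter. The part of these cell types in the Rgs5 difference was not tested.

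Pdgfrb (Entrez 18596, chromosome 18) encodes the receptor for PDGF-B, the mitogen that recruits pericytes and drives stellate cells to divide. It had 1.68, 1.53, 1.89, 1.58, 1.45 and 1.79 RPKM in WT 1 to 6 and 1.23, 1.22, 1.8, 1.72, 1.91 and 1.74 RPKM in Gcg KO 7 to 12. Gcg KO 7 and 8 were the lowest of all libraries, while the other 4 Gcg KO livers lay within or just above the WT range. The means were 1.65 ± 0.167 and 1.60 ± 0.302 RPKM, a log2 fold change of -0.04 ± 0.10 (95% interval -0.27 to 0.18; limma adjusted p = 0.912). The direction of this difference depended on single libraries: it was 0.01 without Gcg KO 7 and 0.01 without Gcg KO 8. Rgs5 and Pdgfrb, which are both used as pericyte markers, fell on different sides of the threshold; whether their fold changes differ from each other was not tested.

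Beyond these genes the pericyte and vascular mural list had 11 measured genes of 13 found in the table. Rgs5 rose, 0 fell and 10 did not pass (median log2 fold change 0.08), and 2 reached an unadjusted p below 0.05. Over all tested genes 1.95% were called higher and 15.7% reached that unadjusted level. Steap4, a metalloreductase and the most abundant of the list, had 32.5 ± 13.0 in WT livers and 35.9 ± 16.7 RPKM in Gcg KO livers. Mcam, the adhesion molecule CD146, which endothelium also expresses, had 1.55 ± 0.265 and 1.90 ± 0.235 RPKM (limma adjusted p = 0.302). Cspg4 (NG2) and Notch3, used to define pericytes and vascular smooth muscle, were under the filter.

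Lrat (Entrez 79235, chromosome 3, 82892582 to 82903974) encodes lecithin retinol acyltransferase, the enzyme that esterifies retinol for storage in stellate cells. Its levels were 2.24, 2.46, 1.97, 3.03, 2.28 and 5.24 RPKM in WT 1 to 6. In Gcg KO 7 to 12 they were 1.48, 4.48, 3.02, 5.29, 2.51 and 3.49 RPKM. WT 6 stood far above the other WT livers, Gcg KO 10 and Gcg KO 8 were the highest of their group, and Gcg KO 7 was the lowest of all. The means were 2.87 ± 1.21 and 3.38 ± 1.37 RPKM, a log2 fold change of 0.18 ± 0.25 with an interval from -0.37 to 0.73 (limma adjusted p = 0.809). The 3 libraries that stood apart had 3.49 to 5.29 RPKM and the other 9 had 1.48 to 4.48 RPKM. An antisense gene, Rbm46os, overlaps an exon of Lrat and was listed at no more than 0.051 RPKM; whether counting used strand was not stated, so reads of that strand cannot be told apart from those of Lrat.

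The retinoid handling list had 10 measured genes. Of these 1 fell, 0 rose and 9 did not pass (median log2 fold change 0.03), where 1.92% of tested genes were called lower. The 1 that fell was Bco1, the oxygenase that cleaves beta-carotene to retinal, from 2.32 ± 0.262 to 1.64 ± 0.136 RPKM without overlap (log2 fold change -0.40 ± 0.08; limma adjusted p = 0.0141). Rbp4, the hepatocyte protein that carries retinol in plasma, had 2145 ± 217 and 2148 ± 154 RPKM. Aldh1a1, a retinal dehydrogenase, had 557 ± 92.6 and 523 ± 56.3 RPKM. Aldh1a2, Crabp1, Crabp2, Rbp2 and Pnpla3 were under the filter.

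Reln (Entrez 19699, chromosome 5, 21884454 to 22344705) encodes reelin, a large secreted glycoprotein known from neuronal migration and made in liver by stellate cells. Its levels in WT 1 to 6 were 5.52, 5.10, 5.6, 4.47, 5.30 and 5.82 RPKM. In Gcg KO 7 to 12 they were 4.74, 4.31, 5.46, 6.68, 7.29 and 6.30 RPKM. The Gcg KO livers spread on both sides of the WT range, with Gcg KO 10, 11 and 12 above all WT livers and Gcg KO 8 below them. The means were 5.30 ± 0.477 and 5.80 ± 1.16 RPKM (log2 fold change 0.10 ± 0.12; 95% interval -0.15 to 0.35; limma adjusted p = 0.756). Gcg KO 7 and 8 were thus the lowest Gcg KO libraries for both Reln and Pdgfrb.

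Des (Entrez 13346, chromosome 1, 75360292 to 75368579) encodes desmin, the muscle intermediate filament that also marks rodent stellate cells. It had 1.64, 1.28, 1.02, 1.42, 1.71 and 1.5 RPKM in WT 1 to 6 and 1.90, 1.23, 1.46, 1.34, 1.51 and 1.17 RPKM in Gcg KO 7 to 12. The groups covered nearly the same range. The means were 1.43 ± 0.254 and 1.44 ± 0.261 RPKM, a log2 fold change of 0.01 ± 0.11 (95% interval -0.24 to 0.25; limma adjusted p = 0.989), whose sign turned under quantile normalization (-0.02), under scaling to a common median (-0.02) and without WT 2, WT 3, Gcg KO 7 or Gcg KO 11 (-0.06 to -0.01). An antisense gene, Gm15179, overlaps an exon of Des and was listed at 0 in all libraries.

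Over the stellate identity list, 0 of 19 measured genes rose or fell in limma, and 0 reached an unadjusted p below 0.05. The median log2 fold change was 0.007, and 10 of the 19 were above 0. The summed level of the list was 93.84 to 118.5 RPKM in WT and 89.94 to 131.1 RPKM in Gcg KO. Ecm1, an extracellular matrix protein that hepatocytes also make, had 43.7 ± 6.15 and 44.6 ± 6.97 RPKM, and Colec11, a collectin, had 13.7 ± 1.95 and 12.7 ± 2.67 RPKM. These were the 2 most abundant genes of the list.

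Col1a1 (Entrez 12842, chromosome 11, 94936224 to 94953042) encodes the alpha-1 chain of type I collagen, the main fibrillar collagen of scar tissue. It had 1.23, 0.964, 1.02, 1.29, 1.03 and 0.996 RPKM in WT 1 to 6. In Gcg KO 7 to 12 it had 1.38, 1.01, 1.24, 1.35, 1.72 and 1.24 RPKM. Gcg KO 11 was the highest, and Gcg KO 8 lay among the WT livers. The means were 1.09 ± 0.137 and 1.32 ± 0.234 RPKM (log2 fold change 0.20 ± 0.10; 95% interval -0.02 to 0.41; limma adjusted p = 0.377).

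Col1a2 (Entrez 12843, chromosome 6, 4505618 to 4541543) encodes the alpha-2 chain of the same collagen. Its levels were 2.39, 1.62, 1.47, 2.25, 1.79 and 2.18 RPKM in WT 1 to 6 and 2.10, 2.12, 2.55, 2.73, 3.12 and 2.46 RPKM in Gcg KO 7 to 12. The 4 highest livers were Gcg KO and the 3 lowest were WT, with an overlap between 2.10 and 2.39 RPKM. The means were 1.95 ± 0.375 and 2.51 ± 0.388 RPKM, a log2 fold change of 0.30 ± 0.12 (95% interval 0.05 to 0.55). The unadjusted p was 0.0216 and the limma adjusted p 0.205, so Col1a2 did not pass over all genes.

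Col3a1 (Entrez 12825, chromosome 1, 45311538 to 45349706) encodes type III collagen, which forms thin reticular fibres and is laid down early in wound repair. It had 6.13, 3.43, 3.48, 4.77, 4.42 and 4.85 RPKM in WT 1 to 6 and 5.46, 3.83, 5.53, 6.23, 7.08 and 6.44 RPKM in Gcg KO 7 to 12. WT 1 lay inside the upper Gcg KO range and Gcg KO 8 inside the WT range. The means were 4.52 ± 1.0 and 5.76 ± 1.12 RPKM (log2 fold change 0.32 ± 0.15; 95% interval 0.0007 to 0.64; unadjusted p = 0.0496; limma adjusted p = 0.317).

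**Figure D2:**
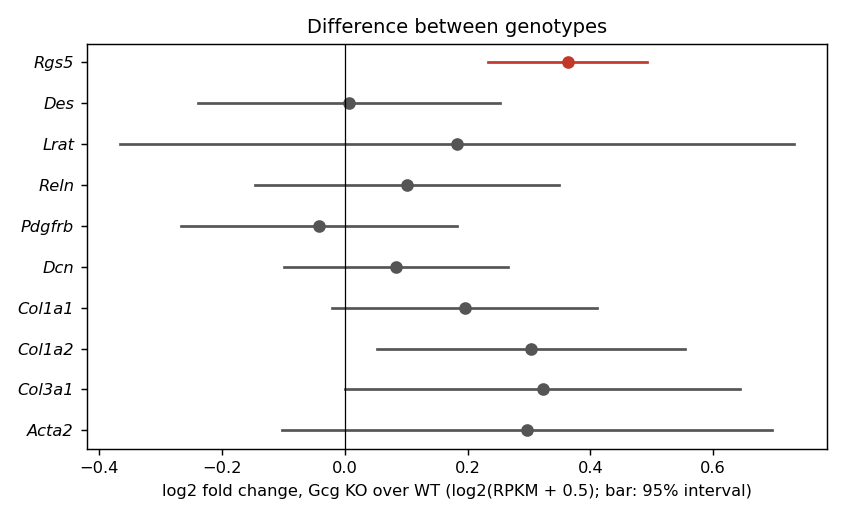
Log2 fold change of each of the 10 genes, Gcg KO over WT, on the log2(RPKM + 0.5) scale, with its 95% interval as a bar. Rgs5 (red) passed the adjusted threshold; the intervals of Col1a2 and Col3a1 also lie above 0 but did not pass after adjustment over 11347 genes, and the others include 0.

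No difference in the balance among the collagen transcripts passed the test. The ratio of Col1a1 to Col1a2 was 0.567 ± 0.0794 in WT and 0.529 ± 0.0685 in Gcg KO, and ranged from 0.456 to 0.691 and from 0.477 to 0.658. The log2 difference was -0.10 (exact two-sided permutation test, p = 0.381; adjusted over 3 ratios, 0.496). Col3a1 was 4.14 ± 0.681 times Col1a1 in WT and 4.35 ± 0.507 times in Gcg KO (log2 difference 0.08; exact permutation test, p = 0.496; adjusted p = 0.496). These ratios do not depend on the scaling of a library.

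Dcn (Entrez 13179, chromosome 10, 97479500 to 97518163) encodes decorin, a small leucine-rich proteoglycan that binds collagen fibrils and TGF-beta. It was the most abundant of the 10 genes, at 65.4, 57.3, 53.8, 59.5, 49.0 and 52.9 RPKM in WT 1 to 6 and 59.5, 49.1, 60.2, 68.2, 60.1 and 61.2 RPKM in Gcg KO 7 to 12. Most Gcg KO livers lay near 60 RPKM, inside the WT range. The means were 56.3 ± 5.77 and 59.7 ± 6.12 RPKM (log2 fold change 0.08 ± 0.08; 95% interval -0.10 to 0.27; limma adjusted p = 0.720). Without the 3 libraries that stood apart the log2 fold change of Dcn was 0.007.

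Across the other matrix genes 2 passed the test, both of the protease list. Of 14 measured collagens 0 rose and 0 fell in limma, 2 reached an unadjusted p below 0.05 (Col1a2 and Col3a1), and the median log2 fold change was 0.06. Col18a1, a basement membrane collagen that hepatocytes express, was the most abundant, at 182 ± 15.0 in WT livers and 199 ± 10.2 RPKM in Gcg KO livers, followed by Col14a1, a fibril-associated collagen, at 8.50 ± 0.762 and 8.59 ± 2.05 RPKM. Of 12 measured genes of collagen processing 0 passed limma and 2 reached an unadjusted p below 0.05 (median 0.06). The 2 most abundant of these were P4hb, a subunit of prolyl hydroxylase, at 584 ± 39.98 and 532 ± 36.2 RPKM, and Ppib, a prolyl isomerase, at 129 ± 18.2 and 134 ± 8.0 RPKM.

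Of 24 measured proteoglycans and matrix glycoproteins 0 passed limma, 3 reached an unadjusted p below 0.05 (Postn, Nid1 and Lamc1), and the median was 0.06. Postn, periostin, had 2.47 ± 0.254 in WT livers and 3.14 ± 0.323 RPKM in Gcg KO livers (limma adjusted p = 0.0696). Fn1, fibronectin, which hepatocytes secrete into plasma, had 241 ± 26.6 and 255 ± 40.8 RPKM and was the most abundant, followed by Dcn. Of 10 measured matrix proteases and inhibitors, 2 rose, 0 fell and 8 did not pass (median 0.13), where 1.95% of tested genes were called higher. Mmp15, a membrane-type metalloproteinase, rose from 8.56 ± 1.12 to 11.4 ± 1.09 RPKM with overlapping libraries (limma adjusted p = 0.0232). Reck, a membrane-anchored inhibitor of metalloproteinases, rose from 0.666 ± 0.18 to 1.43 ± 0.398 RPKM, also with overlapping libraries (limma adjusted p = 0.0222). Leaving out any of WT 2, WT 4, Gcg KO 8 and Gcg KO 12 ended the Mmp15 call (highest adjusted p 0.055). The Reck call was lost without Gcg KO 7, 8 or 9, and without the 3 libraries (limma adjusted p = 0.0882). Mmp19, the most abundant of the list, had 19.9 ± 5.12 and 16.8 ± 1.35 RPKM. Timp1, an inhibitor that rises in fibrosis, was under the filter.

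PDGF and TGF-beta signalling, the pathways that activate stellate cells, had 19 measured genes, of which 0 passed limma, 1 reached an unadjusted p below 0.05 (Tgfbr1) and the median was 0.04. Itgb5, an integrin subunit, had 16.3 ± 1.66 in WT livers and 15.6 ± 1.40 RPKM in Gcg KO livers, and Smad4, the shared signal transducer of the TGF-beta family, had 7.99 ± 0.791 and 8.69 ± 0.854 RPKM. These were the 2 most abundant. Pdgfb, Pdgfd, Tgfb2 and Tgfb3 were among the ligands under the filter.

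Acta2 (Entrez 11475, chromosome 19, 34240336 to 34255585) encodes smooth muscle alpha-actin, which marks vascular smooth muscle and activated stellate cells. Its levels were 1.54, 0.940, 1.44, 1.83, 0.709 and 1.17 RPKM in WT 1 to 6. In Gcg KO 7 to 12 they were 1.93, 1.14, 2.66, 1.61, 1.57 and 1.19 RPKM. Gcg KO 9 was the highest and WT 5 the lowest, and the remaining livers of both groups were interleaved. The means were 1.27 ± 0.414 and 1.68 ± 0.561 RPKM (log2 fold change 0.30 ± 0.19; 95% interval -0.10 to 0.70; limma adjusted p = 0.495). The ratio of Acta2 to Des was 0.931 ± 0.374 in WT and 1.17 ± 0.331 in Gcg KO (log2 difference 0.40; exact permutation test, p = 0.227; adjusted p = 0.496). Other actin genes are close copies of Acta2 in their coding sequence, and Actb alone had 323 to 553 RPKM; the assignment of shared reads was not stated, so the Acta2 values are uncertain.

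In the contractile and smooth muscle list all 8 measured genes had a log2 fold change above 0, where 54.3% of tested genes did. The list median was 0.26. Of the 8 genes 2 rose, 0 fell and 6 did not pass, where 1.95% of tested genes were called higher. Both genes that rose were tropomyosins, which bind along actin filaments and are not restricted to muscle. Tpm1 had 11.02 to 15.3 RPKM in WT and 16.0 to 18.6 RPKM in Gcg KO, with means of 12.9 ± 1.54 and 17.5 ± 1.19 (log2 fold change 0.43 ± 0.08; limma adjusted p = 0.0069). Tpm2 rose from 1.69 ± 0.937 to 4.85 ± 2.12 RPKM with overlapping libraries (log2 fold change 1.29; limma adjusted p = 0.0252). Tpm2 passed in 14 of 23 alternatives: the call was lost with no filter, without any of WT 1, 3, 4 and 5 or Gcg KO 8, 10 and 12, and without the 3 libraries together (log2 fold change 1.25), with an adjusted p of at most 0.0631. Tagln, transgelin, a smooth muscle marker, had 3.45 ± 1.02 and 4.39 ± 0.713 RPKM (unadjusted p = 0.0427; limma adjusted p = 0.294). Vim, vimentin, had 8.33 ± 1.73 and 9.65 ± 1.8 RPKM. Cnn1, Lmod1, Synpo2 and Actg2, which are more restricted to smooth muscle, were under the filter. Cnn1, Lmod1 and Synpo2 had means of 0.146, 0.163 and 0.0588 RPKM in WT and lower means of 0.0921, 0.117 and 0.0319 RPKM in Gcg KO. Actg2 had 0.233 RPKM in WT and a higher mean of 0.296 RPKM in Gcg KO.

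**Figure D3:**
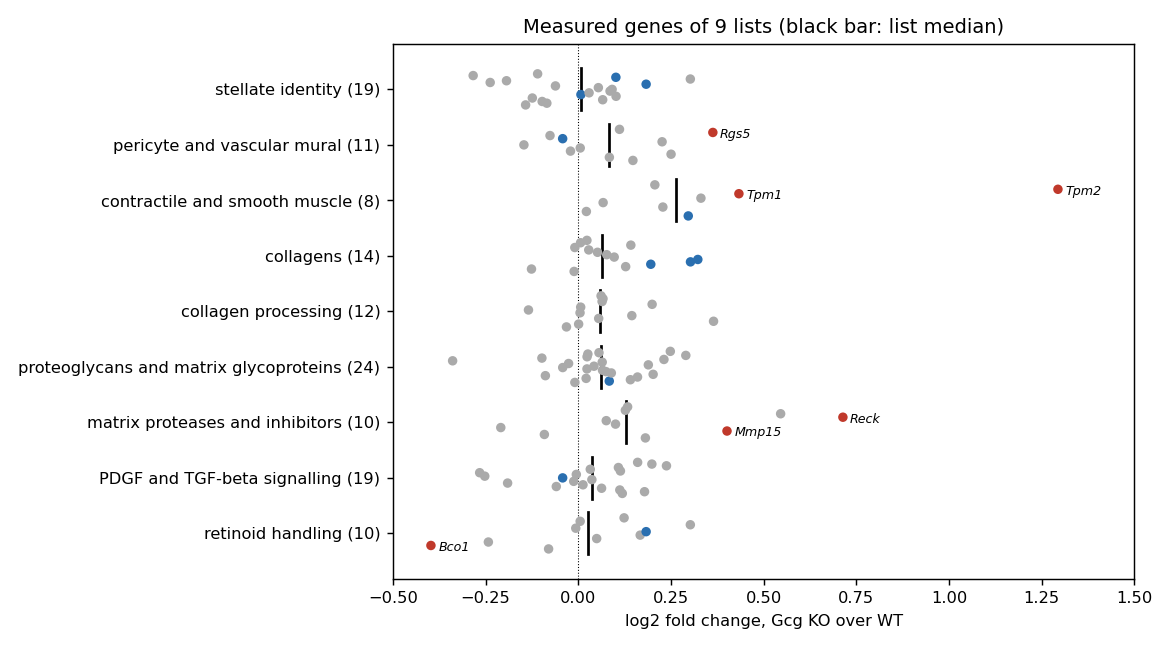
Log2 fold change, Gcg KO over WT, of each measured gene in 9 lists (number of measured genes in brackets), with the list median as a black bar. Red genes passed the adjusted threshold and are named; blue genes are members that did not pass. The contractile list has the highest median, 0.26, and the stellate identity list the lowest, 0.007.

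Of the markers of further cell types 0 passed the threshold. Of 11 measured Kupffer cell markers 0 passed limma, also unadjusted (median 0.05). Clec4f, a lectin of these macrophages, had 30.5 ± 8.37 in WT livers and 33.7 ± 7.32 RPKM in Gcg KO livers, and Cd5l, which they secrete, had 26.8 ± 4.03 and 26.2 ± 4.41 RPKM. Of 6 measured neutrophil markers 0 passed, also unadjusted (median -0.31). S100a9 had 18.05 ± 10.9 and 13.0 ± 11.6 RPKM and S100a8, its partner in calprotectin, 12.6 ± 7.90 and 10.01 ± 8.39 RPKM. The summed level of the neutrophil list was 2.58 to 3.65 RPKM in WT 6, Gcg KO 10 and Gcg KO 12, and 19.1 to 68.75 RPKM in the other 9 libraries. Of 6 hepatocyte markers 0 passed, 1 unadjusted (Apoh), with a median of -0.01; Apoa1, the apolipoprotein of HDL, had 6453 ± 1064 and 7245 ± 1175 RPKM. Of 5 measured portal fibroblast markers 0 passed and 1 reached an unadjusted p below 0.05: Gas6, a ligand of TAM receptors that other liver cells also make, had 9.14 ± 1.52 and 7.05 ± 0.58 RPKM (limma adjusted p = 0.0703). Dpt, dermatopontin, had 1.64 ± 0.481 and 1.84 ± 0.385 RPKM. The defining portal fibroblast genes Thy1, Gli1, Pi16 and Clec3b were under the filter. Upk3b and Msln, the most abundant mesothelial markers, had 0.473 ± 0.258 and 0.479 ± 0.127 RPKM in WT and 0.591 ± 0.313 and 0.483 ± 0.228 RPKM in Gcg KO. The summed level of the mesothelial list was at most 2.94 RPKM in any library and that of the Schwann cell list at most 0.591, with Sox10 listed at 0 in all.

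The order of the levels per gene length, over the 12 libraries, was led by Dcn at 58.0 ± 5.94 RPKM. Rgs5 (7.43 ± 1.12), Reln (5.55 ± 0.882), Col3a1 (5.14 ± 1.21) and Lrat (3.13 ± 1.26) followed. Col1a2 (2.23 ± 0.467), Pdgfrb (1.63 ± 0.234), Acta2 (1.48 ± 0.516), Des (1.43 ± 0.245) and Col1a1 (1.21 ± 0.221) were the lowest. Dcn exceeded Rgs5, and Rgs5 exceeded Reln, in 12 of 12 libraries. Reln exceeded Col3a1 in only 7, Acta2 exceeded Des in 7 and Des exceeded Col1a1 in 8, so those neighbours were not separated by more than their spread.

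The reads behind these values could be estimated. For 8 of the 10 genes a single gene length turned the RPKM of all 12 libraries into whole reads, within 0.14 of a read; for Reln and Dcn, with no such distinct length, the reads were not recovered. The length found for Lrat, 5351 bases, equals its longest transcript in GENCODE M21, and that for Col3a1, 5565 bases, is close to the annotated 5564. It was shorter than the longest transcript for Rgs5 (1809 against 4096 bases) and Col1a1 (4699 against 5930), and longer for Acta2 (2547 against 2035). Levels set against each other between genes carry that choice of length, whereas differences between livers of the same gene do not.

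The spread between libraries was set beside the spread that the estimated number of reads alone would give, as a description with no test. Rgs5 had 130 to 221 reads per library, 904 in all WT and 1112 in all Gcg KO libraries. Its coefficient of variation was 5.68% in WT and 6.10% in Gcg KO, below the 8.20% and 7.38% that counting alone would give. Col1a1 had 54 to 89 reads, with 12.6% against 12.4% in WT and 17.7% against 11.7% in Gcg KO. Lrat, with 105 to 387 reads, varied by 42.2% in WT and 40.5% in Gcg KO, where counting gives 7.47% and 7.34%. The observed spread was thus several times the counting value for Lrat and under it for Rgs5.

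Acta2 rested on the fewest reads, 21 to 92 per library, and varied by 32.5% and 33.4% against 16.4% and 14.7% from counting. Its lowest value, in WT 5, came from 21 reads (exact 95% Poisson interval 13 to 32.1) and its highest, in Gcg KO 9, from 92 reads (74.2 to 113). Des had 37 to 77 reads, Pdgfrb 75 to 132, Col1a2 95 to 192 and Col3a1 243 to 496. These intervals cover counting error only.

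**Figure D4:**
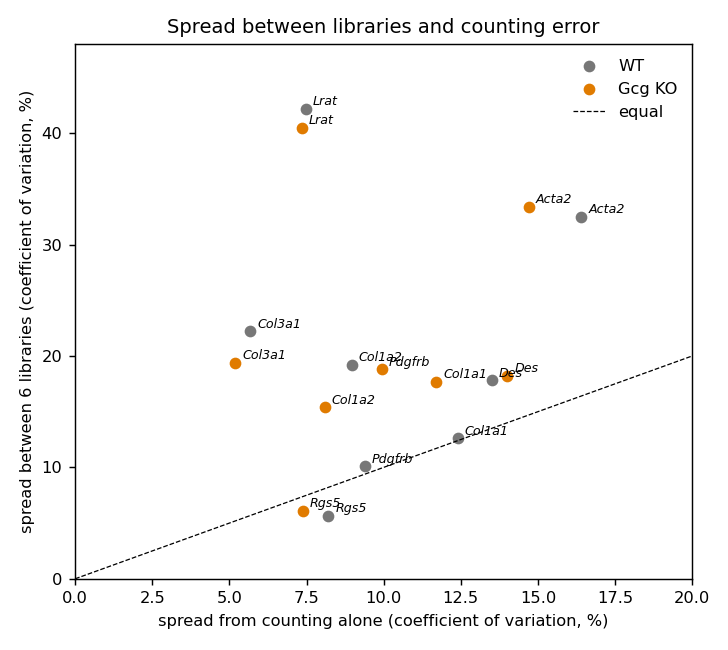
Coefficient of variation of RPKM between the 6 libraries of a group (vertical axis, %) against the coefficient expected from the number of reads alone (horizontal axis, %), for the 8 genes whose reads were recovered, in WT (grey) and Gcg KO (orange); the dashed line marks equality. Rgs5 lies under the line, Col1a1 in WT on it, and Lrat far above it at 42.2% and 40.5%.

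The collagen genes varied together from liver to liver. Over the 12 libraries Pearson's r of log2(RPKM + 0.5) was 0.83 for Col1a1 and Col3a1 (permutation p = 7.7e-04, adjusted over 4 pairs 0.0031; Spearman's rho 0.748, permutation p = 0.0073, adjusted 0.0291). It was 0.802 for Col1a1 and Col1a2 (permutation p = 0.0016, adjusted 0.0032; rho 0.643, permutation p = 0.0287, adjusted 0.0382). Within WT the values were 0.679 (permutation p = 0.157) and 0.711 (permutation p = 0.153), and within Gcg KO 0.839 (permutation p = 0.0601) and 0.741 (permutation p = 0.0892), with 6 libraries each, none of which passed. Without WT 2 and Gcg KO 11, the 2 libraries farthest from the median of Col1a1, they were 0.75 (permutation p = 0.0167, adjusted 0.0669) and 0.637 (permutation p = 0.0429, adjusted 0.0859). Neither passed after adjustment. That setting also has only 10 libraries and a narrower range of Col1a1, so whether the calls rest on those 2 libraries was not tested. Without WT 6, Gcg KO 10 and Gcg KO 12 the values of r were 0.894 (permutation p = 0.001, adjusted 0.004) and 0.844 (permutation p = 0.0039, adjusted 0.0079). With values centred within each genotype, over all 12 libraries, r was 0.759 for Col1a1 and Col3a1 and 0.695 for Col1a1 and Col1a2, given without a test.

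Acta2 and Tagln had r = 0.586 (permutation p = 0.0434, adjusted 0.0578; rho 0.643, permutation p = 0.027, adjusted 0.0382), with 0.291 within WT (permutation p = 0.582) and 0.794 within Gcg KO (permutation p = 0.063). Without WT 5 and Gcg KO 9 it was 0.525 (permutation p = 0.12). The stellate genes Lrat and Reln gave r = 0.195 (permutation p = 0.543, adjusted 0.543; rho 0.238, permutation p = 0.455, adjusted 0.455), with 0.144 within WT and 0.162 within Gcg KO (permutation p = 0.751 and 0.757). Without WT 6 and Gcg KO 10 it was -0.127 (permutation p = 0.729). The sign of the relation between Lrat and Reln thus depended on which libraries were kept.

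**Figure D5:**
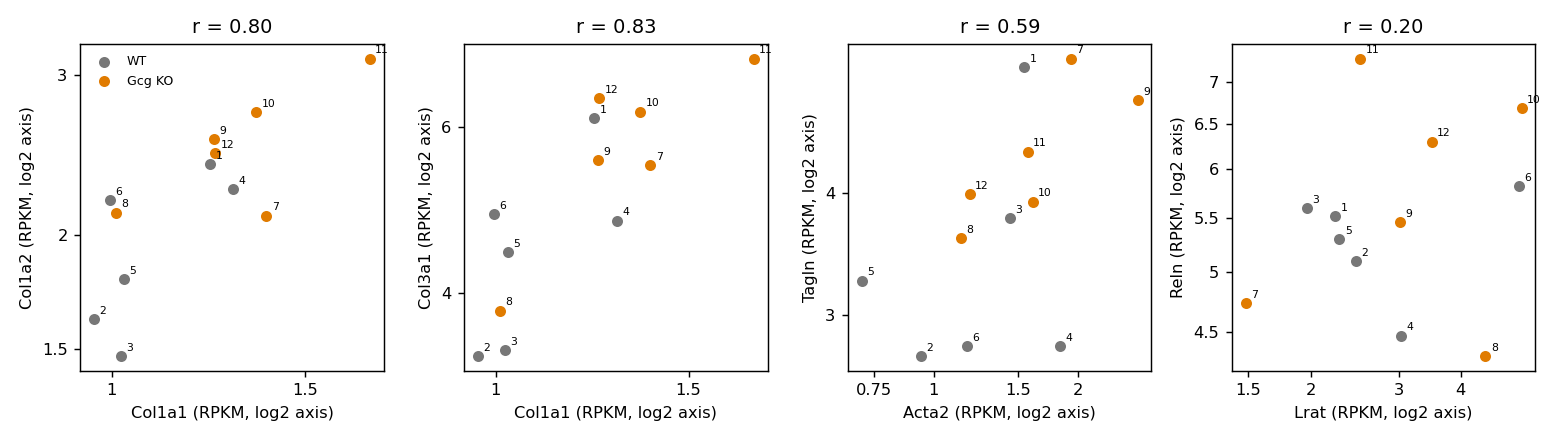
Levels of 4 pairs of genes in the 12 libraries (RPKM on log2 axes, library numbers beside the points, WT grey, Gcg KO orange), with Pearson's r of log2(RPKM + 0.5). Col1a1 runs with Col1a2 (0.80) and Col3a1 (0.83), with Gcg KO 11 at the top of both, whereas Lrat and Reln (0.20) do not line up.

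The genes with the most similar pattern were found by Pearson correlation of values centred within each genotype, over 12 libraries and 10770 genes with a name; the highest of so many are high by selection, so these are descriptions. For Lrat the nearest was Rabggta, a subunit of Rab geranylgeranyl transferase (0.98), followed by Dnmt3b, Il11ra1, Cep57l1 and Cldn3 (0.909 to 0.928). Rabggta had 8.93, 9.21, 8.57, 9.84, 8.80 and 11.1 RPKM in WT 1 to 6 and 6.87, 9.79, 8.34, 9.58, 8.03 and 9.09 RPKM in Gcg KO 7 to 12, highest in WT 6 and lowest in Gcg KO 7. For Col1a1 the nearest were Fgg and Fgb, fibrinogen chains made by hepatocytes (0.957 and 0.953), then Sirpa, Clca3a1 and Lcat (0.904 to 0.935). For Acta2 they were Smim4, Lsm8, Dnajc22, Ttc17 and Shq1 (0.803 to 0.856). No stellate, pericyte or matrix gene of the lists was among the 5 nearest of these 3 genes.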

How the data were processed

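The deposited table held RPKM values made by the authors, 1 column per library; the unit was taken from the table's name and values. CASAVA 1.8.2, FastQC and the GRCm38 build appear in the submitters' processing notes; how reads were aligned and counted was not given in the sources used. Libraries were grouped by genotype from the labels. Expression was tested on log2(RPKM + 0.5) where the mean over 12 libraries reached 0.5, using limma 3.58.1 (R 4.3.3) with a trend, genotype as the sole factor, two-sided p-values and Benjamini-Hochberg adjustment across 11347 genes; fold changes understate those of low genes. The procedure was tested on simulated data. Depth and reads per gene were estimated from the steps of the low values; correlation tests used 100000 resamples, and ratios exact permutation (scipy 1.17.1). The text names the 10 members, and in each list of stellate, pericyte, contractile, matrix and signalling genes, and of markers of other cell types, the called genes and the 2 most abundant; the 5 genes nearest to Col1a1, Lrat and Acta2 were also named; other names were chosen after their values were seen. The members and lists were chosen with earlier results of these data known. Alternatives changed the pseudocount, filter, scaling, limma settings and libraries kept.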

Additional observations from a re-analysis of the deposited data

Results flagged for a closer look

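Within groups of 6 libraries, the gap between an extreme library and its nearest neighbour was compared with the range of the group (Dixon's 95% criterion). Chance alone exceeds this in about 1 in 20 groups, and 2 of 26 groups tested did. Lrat had 5.24 RPKM in WT 6, where the next WT library had 3.03 RPKM and the lowest 1.97 RPKM (ratio 0.674). The ratio of Acta2 to Des was 1.82 in Gcg KO 9, where the next Gcg KO library had 1.20 and the lowest 0.924 (ratio 0.688).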

How the results depend on the processing

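Rgs5 passed the threshold in all 23 alternative limma fits, with a log2 fold change of 0.33 to 0.39 and adjusted p from 0.0025 to 0.0263, and the number of members called was 1 in each. Without single libraries the log2 fold change of Des ranged from -0.0602 to 0.0489 and that of Pdgfrb from -0.0847 to 0.0136; Des was -0.0179 under quantile normalization and -0.0158 with a common median. Col1a2 (0.30) had p = 0.0368 in an exact permutation test of that gene alone, without adjustment. For Col1a1 and Col1a2, r was 0.711 within WT, 0.741 within Gcg KO and 0.637 without the 2 farthest libraries; for Col1a1 and Col3a1 it was 0.679, 0.839 and 0.75. For Lrat and Reln it was -0.127 without the 2 farthest libraries and -0.288 without WT 6, Gcg KO 10 and Gcg KO 12. Without those 3 libraries 128 genes were called higher in Gcg KO over the whole table, where the full set gave 221. Called genes fell to 1 in the contractile and endothelial lists with no filter and without the 3 libraries, and to 1 in the protease list at a mean of at least 2 RPKM and without the 3 libraries. At a mean of at least 2 RPKM the retinoid list had 0, since Bco1 was not tested there, and with array weights the proteoglycan list had 1. Without single libraries the called genes numbered 277 (without WT 3) to 471 over the whole table, 136 (without WT 3; 142 without Gcg KO 9) to 261 higher in Gcg KO, 1 to 2 in the contractile list, 1 to 2 in the endothelial list, 0 to 2 in the protease list and 0 to 1 in the proteoglycan list. Fits on fewer libraries have fewer degrees of freedom; otherwise the cause was not tested. No paired analysis was possible because the library numbers do not repeat between the groups. Depth limits Acta2 and Des most, with as few as 21 and 37 reads in a library.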
